A study of Mus musculus with 36 samples.

Results

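The forelimbs of mouse embryos that lack the limb enhancer hs1603 were compared with the forelimbs of 3 other enhancer knockout lines, hs1262, hs1467 and hs1586, through their H3K27ac ChIP-seq peak lists. The comparison used the 2 lists labelled hs1603 and the 6 lists of the 3 sister lines, out of 18 lists in the series. The lists were chosen by genotype and by the run tag in their names: replicate 1 of all 4 lines carries one tag (run 1 here) and replicate 2 of all 4 carries another (run 2), so that each run holds 1 library of each line. Comparisons were therefore made within runs. All embryos were of the FVB strain at embryonic day 11.5, untreated, and every library came from pooled forelimbs of enhancer-null embryos, so each list describes a pool and all cell types of the limb together. No wild-type library shares these runs. The 10 lists from other runs (4 wild type, 4 mm1179 knockout and 2 hs72 knockout) are given only as levels, never as controls.

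H3K27ac, acetylation of a lysine in the tail of histone H3, marks enhancers and promoters that are active in a tissue. A limb enhancer is a stretch of non-coding DNA that raises the transcription of a gene in the growing limb, often from a long distance. The hs1603 element belongs to the neighbourhood of Sox5 on chromosome 6. Sox5 encodes a transcription factor of the SoxD group that is known for its role in cartilage formation. The study asked how far the limb tolerates the removal of one enhancer at a time. For the peak lists, the questions are where acetylated sequence is missing in hs1603, whether marking near that place differs, and whether the rest of the landscape differs from that of lines lacking other enhancers.

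The hs1603 lists held 26919 peaks in run 1 and 54375 in run 2. The sister lists held 26550 to 32472 peaks in run 1 and 56475 to 58753 in run 2. The lists carry no counts of reads, so their depth is unknown, and a peak that is absent from a list is a call that was not made. Each peak carries a score given by the authors, used here only to rank peaks within a list. A percentile of 90 means that 90% of the peaks of that list score no higher, except that tied peaks share the mean of their ranks. Scores of 3100 and above were treated as tied, because 3201 peaks of hs1603 replicate 2 and 10 of replicate 1 lay at that ceiling or above. Sequence under peaks in at least 2 of these 8 libraries formed 59342 consensus regions, of which 17912 (30.2%) were called in all 8 libraries. All coordinates are 1-based, in the mouse genome build mm9.

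The strongest and longest gap of the hs1603 lists lay on chromosome 6 from 143446501 to 143450500. Over these 4 kb both hs1603 libraries lacked a peak, and all 6 sister libraries had one. The sister peaks were among the strongest of their lists. In run 1 they stood at percentiles of 96.9 in hs1262, 93.6 in hs1467 and 96.4 in hs1586, with widths of 5928, 5924 and 4482 bp. In run 2 they stood at 91.3, 85.9 and 90.9, with widths of 5248, 4365 and 6038 bp. The hs1603 libraries had no peak anywhere between their flanking peaks, over 88.6 kb in replicate 1 (from 143388761 to 143477407) and 88.7 kb in replicate 2 (from 143388737 to 143477429). Each sister library had 1 peak between its own flanking peaks, the one over the gap, and was otherwise bare there too. Over the 4 kb the groups are separate by definition, since a gap is sequence called in all 6 sister libraries and in no hs1603 library.

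The 10 libraries of the other runs also had a peak over the gap. The 4 wild-type libraries stood at percentiles from 72.7 to 90.9 with a median of 88.5, and their peaks were 3204 to 3805 bp wide. The 4 mm1179 libraries ranged from 79.1 to 90.2, and the 2 hs72 libraries stood at 82.7 and 92.1. Each of the 16 libraries without the hs1603 knockout had exactly 1 peak there, and a core of 3073 bp from 143446720 to 143449792 was covered in all 16. The coordinates of the deleted interval were not given in the sources used here, so the gap was located from these lists alone. Its values are a description and carry no test. Sequence that has been deleted gives no reads, so a gap in a deletion line cannot tell removed DNA from DNA that lost its acetylation.

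**Figure D1:**
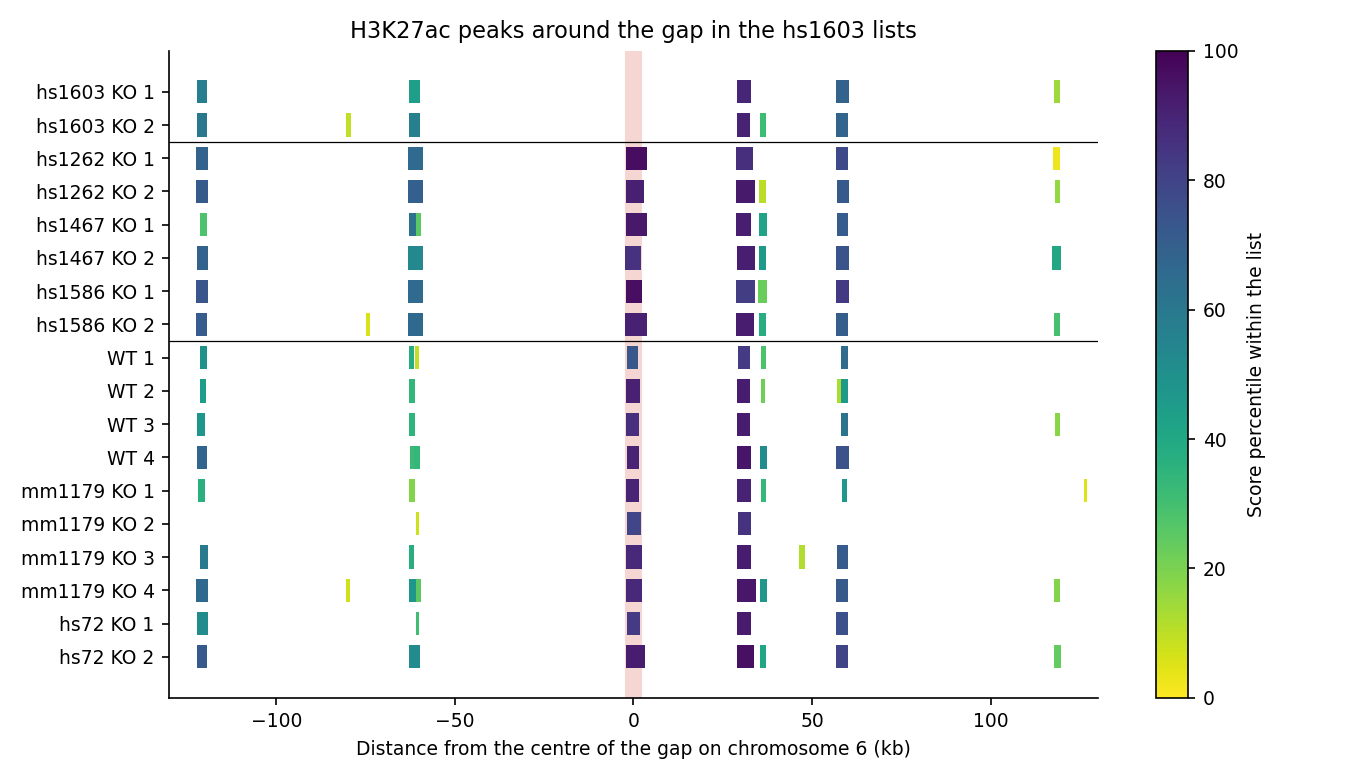
Peaks of all 18 libraries within 130 kb of the centre of the gap on chromosome 6, 1 line per library; the x axis is the distance in kb, colour is the score percentile within the library's own list, and the shaded band marks the 4 kb gap. The 2 hs1603 libraries have no peak in the band, and the 16 others have 1 each, at percentiles of 72.7 to 96.9.

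The gap was the one strong region that was absent in both hs1603 libraries. In all, 42 regions were called in all 6 sister libraries and in no hs1603 library, 0.0708% of the 59342 regions. The same count was 27 for hs1262, 25 for hs1467 and 37 for hs1586, each set against the other 3 lines. The gap region had a mean percentile of 92.5 in the sister libraries, and the second strongest of the 42 stood at 43.5. The median of the 42 was 26.3, and their median width was 2452 bp. Of the 42, the gap was the 1 region called in all 10 libraries of the other runs, and 15 were called there by at most 2 libraries.

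The next regions of the 42 by mean sister percentile were weak calls. On chromosome 4 from 76088602 to 76091489 the sister libraries stood at 26.8 to 56.4 in run 1 and at 30.3 to 57.9 in run 2. On chromosome 15 from 35669800 to 35672428 they stood at 34.7 to 38.9 and at 24.4 to 55.5. On chromosome 3 from 49897226 to 49901294 the ranges were 15.1 to 32.6 and 44.8 to 60.4. Such levels lie near or below the middle of each list, and the libraries of the other runs called the 3 regions in 6, 4 and 4 of 10 cases. The last of the 5, on chromosome 5 from 65460613 to 65462799, stood at 0.847 in hs1586 replicate 1 and at 54.1 in hs1262 replicate 2, and 6 of 10 other libraries called it.

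In the other direction, 37 regions (0.0624%) were called in both hs1603 libraries and in no sister library. The sister lines gave 46 for hs1262, 134 for hs1467 and 35 for hs1586. The hs1603 regions were short and weak, at medians of 1274 bp and of percentile 16.9, and 20 of them were called in no library of the other runs. Those of hs1262, hs1467 and hs1586 were much alike in their medians, at widths of 1239, 1331.5 and 1185 bp. Their median percentiles were 18.9, 13.3 and 17.0, and 19, 61 and 23 were called in no library of the other runs. Their strongest regions differed, at mean percentiles of 95.3, 94.5 and 92.5, against 62.5 in hs1603. The first 2 hs1603 regions by percentile lay at 57906708 to 57906712 of chromosome 4 and at 8368384 to 8368388 of chromosome 6. Each was 5 bp wide, the overlap of the edges of neighbouring peaks. The third, on chromosome 2 from 93104733 to 93104900, was 168 bp wide, and the fourth, on chromosome 4 from 104859959 to 104860011, was 53 bp wide. The fifth, on chromosome 12 from 81353740 to 81354901, was 1162 bp wide and stood at a percentile of 75.9 in replicate 1 and 18.9 in replicate 2.

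Per region, 0 of 59342 were called by Fisher's exact test after Benjamini-Hochberg adjustment. At an unadjusted p under 0.05 there were 79, the 42 and the 37. With 2 libraries against 6 the lowest possible p is 0.0357, and no region could pass the adjustment.

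Cutting the genome into tiles of 500 bp, with a tile called when at least 250 bp of it was covered, gave the gap as the longest of 396 segments that were called in all sister libraries and in no hs1603 library. Of the 396, 320 were a single tile. The second spanned 3 kb of chromosome 18, from 56623501 to 56626500, at a mean sister percentile of 31.0. The third spanned 2.5 kb of chromosome 1, from 11007001 to 11009500, at 36.9. The next 2, each 2 kb long, lay within the weak regions on chromosomes 4 and 15 described above. Sister lines had 120 such segments in hs1262, 353 in hs1467 and 267 in hs1586, and their longest were 2, 3.5 and 3.5 kb.

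Segments called in both hs1603 libraries alone numbered 297, against 630 in hs1262, 476 in hs1467 and 380 in hs1586. None was longer than 2 kb. The first of the 2 longest, on chromosome 11 from 20480001 to 20482000, had a mean hs1603 percentile of 19.7. The other, on chromosome 4 from 56718501 to 56720500, had 16.9. The strongest of the 5 longest lay on chromosome 5 from 24204001 to 24205500, at 55.9. Those on chromosome 12 from 81353501 to 81355000 and from 85526001 to 85527500 stood at 47.4 and 37.1. Of the 5, the segment on chromosome 11 was called in 3 libraries of the other runs and the other 4 in none.

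The places where the sister lines have their own gaps were covered in hs1603. This follows from how a gap is defined, since the other 3 lines must all be called there, and only the levels are a description. The longest gap of hs1467, on chromosome 11 from 111688001 to 111691500, was covered over 3500 bp in hs1603 replicate 1 and 3324 bp in replicate 2, at percentiles of 95.5 and 81.0. The longest gap of hs1586, on chromosome 13 from 15639001 to 15642500, was covered over its full 3500 bp in both, at 91.5 and 75.4. That of hs1262, on chromosome 6 from 7041001 to 7043000, was covered over 2000 and 1926 bp, at 54.3 and 39.0. The hs1467 and hs1586 gaps had mean percentiles of 89.2 and 88.1 in the other lines, and the hs1262 gap had 38.1.

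Around the chromosome 6 gap, the acetylated regions on both sides remained called in hs1603. The nearest region to the left, 56.9 kb away from 143385350 to 143389585, was covered over 3241 bp in hs1603 replicate 1, against 4116 bp in hs1262, 3291 bp in hs1467 and 4219 bp in hs1586. In run 2 the values were 3183 bp against 4236, 4134 and 4128 bp. The hs1603 library was the lowest of the 4 in both runs, close to hs1467 in run 1 and well apart in run 2. Relative to each library's median region, the covered length was lower by 0.31 on the log2 scale (SE 0.0723). The unadjusted p was 0.00277, and with Benjamini-Hochberg adjustment over all shared regions limma gave 0.999.

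The nearest region to the right, 26.8 kb away from 143477287 to 143482658, was one of the strongest of the neighbourhood. It was covered over 4055 bp in hs1603 replicate 1, against 4573, 4084 and 5368 bp in hs1262, hs1467 and hs1586. In run 2 it was covered over 3840 bp, against 5372, 5299 and 4992 bp. Again hs1603 was lowest in both runs, close to hs1467 in run 1 and apart in run 2. The log2 difference was -0.31 (SE 0.0775), with an unadjusted p of 0.00406 and a limma p of 0.999 after Benjamini-Hochberg adjustment. Neither flank therefore passed the test. In the 10 libraries of the other runs the left region was covered over 865 to 3208 bp and the right region over 3386 to 5293 bp, and both ranges reach below the hs1603 values.

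The score rank was close to that of the sisters on the right and lower on the left, without passing the test. The right region stood at a percentile of 89.2 in hs1603 against 82.2 to 91.6 in run 1, and at 90.5 against 91.8 to 93.1 in run 2. Its rank difference in normal scores was 0.02 (SE 0.186, limma Benjamini-Hochberg adjusted p = 0.994). The left region stood at 44.2 against 62.3 to 66.0 in run 1 and at 56.9 against 52.9 to 69.6 in run 2. Its rank difference was -0.41 (SE 0.246, limma adjusted p = 0.980), and in run 2 the groups overlapped.

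**Figure D2:**
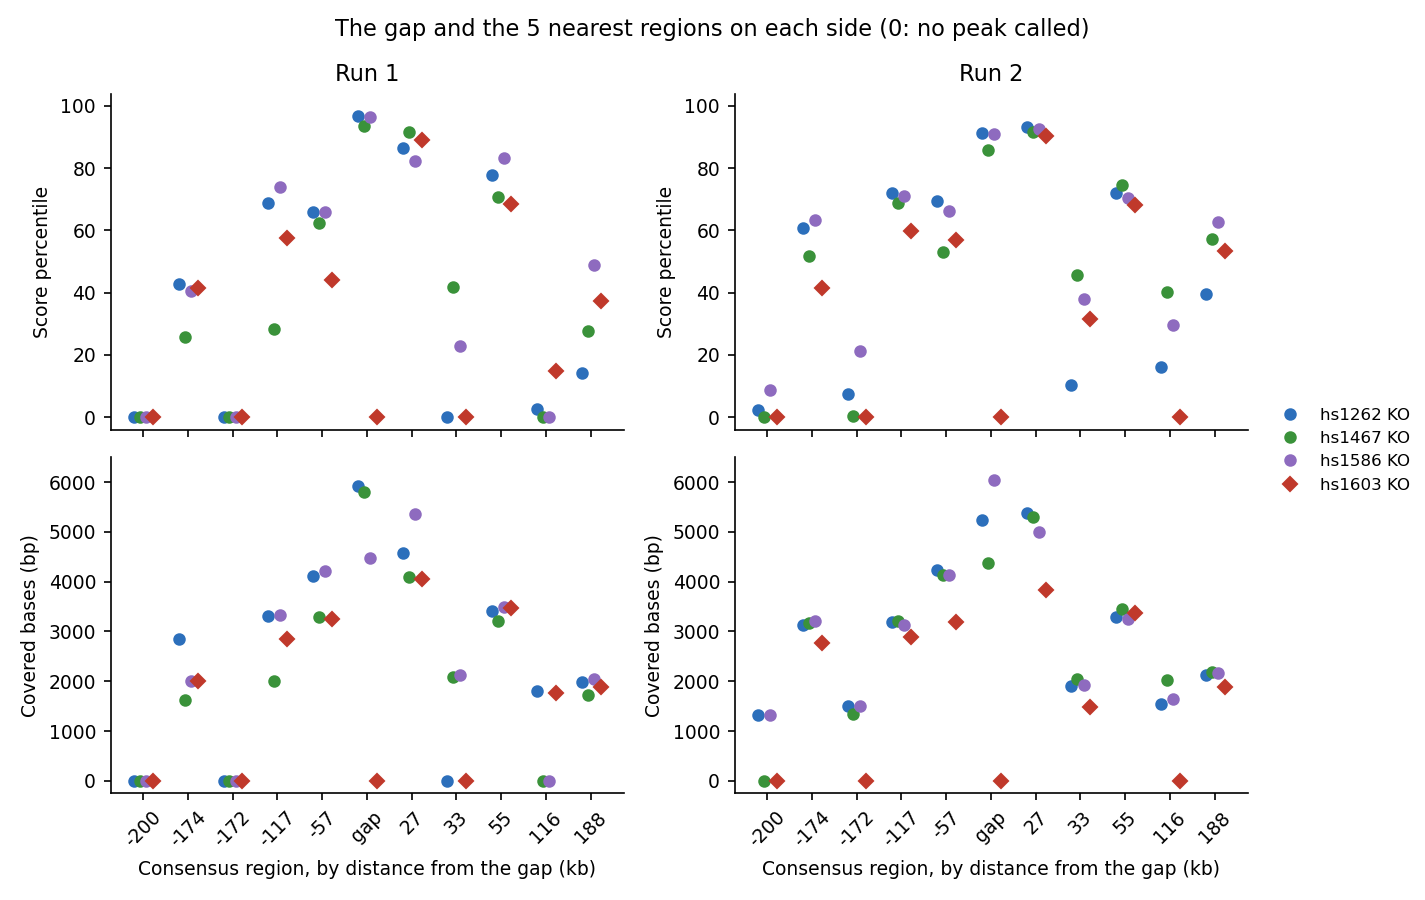
Score percentile (top) and covered bases in bp (bottom) of the gap and the 5 nearest consensus regions on each side, in run 1 (left) and run 2 (right), 1 point per library; the x axis gives the distance from the gap in kb. Red diamonds are hs1603, at 0 over the gap and lowest of the 4 in covered bases in the first region to the left and the first to the right in both runs.

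Farther out, the regions varied from line to line. To the left, a region from 143326046 to 143329382 stood at 57.4 in hs1603 replicate 1, inside the sister range of 28.4 to 73.9, and at 59.9 in replicate 2, below the sister range of 68.8 to 71.9. A region from 143268919 to 143272121 stood at 41.4 in both hs1603 libraries, against 25.9 to 42.7 in run 1 and 51.6 to 63.3 in run 2. Of the 2 remaining regions on the left, from 143272642 to 143274142 and from 143245582 to 143246902, no run 1 library called either, and hs1603 replicate 2 was without both, which 3 and 2 sister libraries called at percentiles of 21.3 or less.

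To the right, the region from 143483711 to 143485826 was missed by hs1603 and hs1262 in run 1 and stood at 31.5 in run 2, within the sister range of 10.2 to 45.8. The region from 143505269 to 143508750 stood at 68.6 and 68.3 in hs1603, just below sister values of 70.8 to 83.4 and 70.6 to 74.6, but its covered length of 3480 and 3380 bp lay within that of the sisters. The region from 143566055 to 143568083 was called in hs1603 replicate 1, at 14.7, and missed in replicate 2. The region from 143638373 to 143640617 stood at 37.4 and 53.3, inside both sister ranges. None of the shared regions among these 10 passed limma's test in rank or covered length.

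Counted over windows, the neighbourhood held no adjusted call. Within 250 kb on either side there were 13 regions besides the gap. In run 1 hs1603 and each sister library called 10 of them, and in run 2 hs1603 called 10 against 13, 12 and 13 in hs1262, hs1467 and hs1586. Of the 9 regions shared by all 8 libraries, 3 were shorter in hs1603 than in every sister library in both runs (33.3%) once each library was centred on its median region, where 5.05% of all 17912 shared regions were. The 3 are both flanks and the region from 143638373 to 143640617. Uncentred, the last of these was covered over 1894 bp in hs1603 replicate 1, above the 1732 bp of hs1467. Of the 3, only the flanks were shortest in bases. The region from 143651264 to 143654591, not among the 3, was shortest in bases too. In run 1 it was covered over 1999 bp in hs1603, against 3067 to 3328 bp in the sisters. In run 2 it was covered over 2015 bp, against 2116 to 3184 bp. With so few regions, and a place chosen from the data, the share of 33.3% is a description.

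Within 1 Mb there were 77 regions besides the gap. In run 1 hs1603 called 58.4% of them, between the 55.8% of hs1586 and the 62.3% of hs1262. In run 2 it called 79.2%, as did hs1467, against 93.5% in hs1586 and 96.1% in hs1262. Over the genome hs1603 called 44.8% of all regions in run 1 and 83.9% in run 2, where the sister libraries called 88.4% to 91.1%. In run 2 the share called by hs1603 was lower in the window than over the genome, as was that of hs1467 (79.2% against 88.4%). In hs1262 and hs1586 it was higher in the window. Whether the lower share of hs1603 in the window goes beyond that over the genome was not tested. The mean difference over the window was -5.19 percentage points. It was 0.439 points without hs1603 replicate 2 and -10.4 points without replicate 1, -1.67 without hs1262 replicate 2 and -1.72 without hs1586 replicate 2. On lists cut to equal length it turned in sign, to 1.92 points.

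Among the 32 shared regions of this window, limma called 0 after adjustment in either measure. At an unadjusted p under 0.05, 1 region was lower in rank, from 142893580 to 142898365 (-0.86), and 1 was higher, from 144198662 to 144201225 (0.88). In covered length the unadjusted list held 3 regions, all shorter: both flanks and a region from 143651264 to 143654591 (-0.55). These were named after their values were seen. One further region of the window was absent in both hs1603 libraries and present in all 6 sisters, 631.7 kb to the right from 144078751 to 144081705, at sister percentiles of 14.7 to 41.2. By distance, the median log2 difference in covered length was -0.31 over the 3 shared regions within 100 kb. They are both flanks, at -0.31 each, and the region from 143505269 to 143508750, at 0.05. The median was -0.07 over the 6 from 100 to 250 kb and -0.03 over the 6 from 250 to 500 kb. Over the 17 from 500 to 1000 kb it was 0.02. A trend with distance was not tested.

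Over the genome, the hs1603 lists were as a rule slightly smaller than those of the sister lines, by differences that the design cannot separate from chance at 0.05. In covered length hs1603 reached 89.6 Mb in run 1, against 91.4 ± 2.1 Mb (SD, n = 3), and 140.9 Mb in run 2, against 160.6 ± 6.3 Mb (SD, n = 3). In run 1 it lay inside the sister range of 89.6 to 93.6 Mb, and in run 2 it lay below the range of 153.6 to 166.0 Mb. The mean difference was -10.7 Mb. A two-sided exact permutation test within runs gave p = 0.125, and 0.208 after Benjamini-Hochberg adjustment over 5 such measures. On lists of equal length the difference was -3.74 Mb (exact permutation p = 0.5), and with a single hs1603 library it was the value of one run, -1.75 or -19.7 Mb. The smallest p that the 16 arrangements allow is 0.0625, so no test of this kind could pass. The labels do not say how many pools of embryos stand behind a line, and these p-values measure only the spread between libraries, which may be technical.

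The number of peaks followed the same pattern. The mean difference was -2610 peaks, at -2182 in run 1, inside the sister range, and -3039 in run 2, below it (exact permutation p = 0.25, adjusted 0.3125). Mean peak width went opposite ways in the runs. It was 3330 bp in hs1603 against 3162 ± 314 bp in run 1 (SD, n = 3) and 2592 against 2798 ± 92 bp in run 2 (SD, n = 3). The mean difference was -19.1 bp (exact permutation p = 0.9375). It was -141.0 bp on lists of equal length (exact permutation p = 0.5), and it turned in sign to 18.0 bp without hs1262 replicate 1, 34.0 bp without hs1586 replicate 1 and 167.9 bp without hs1603 replicate 2.

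**Figure D3:**
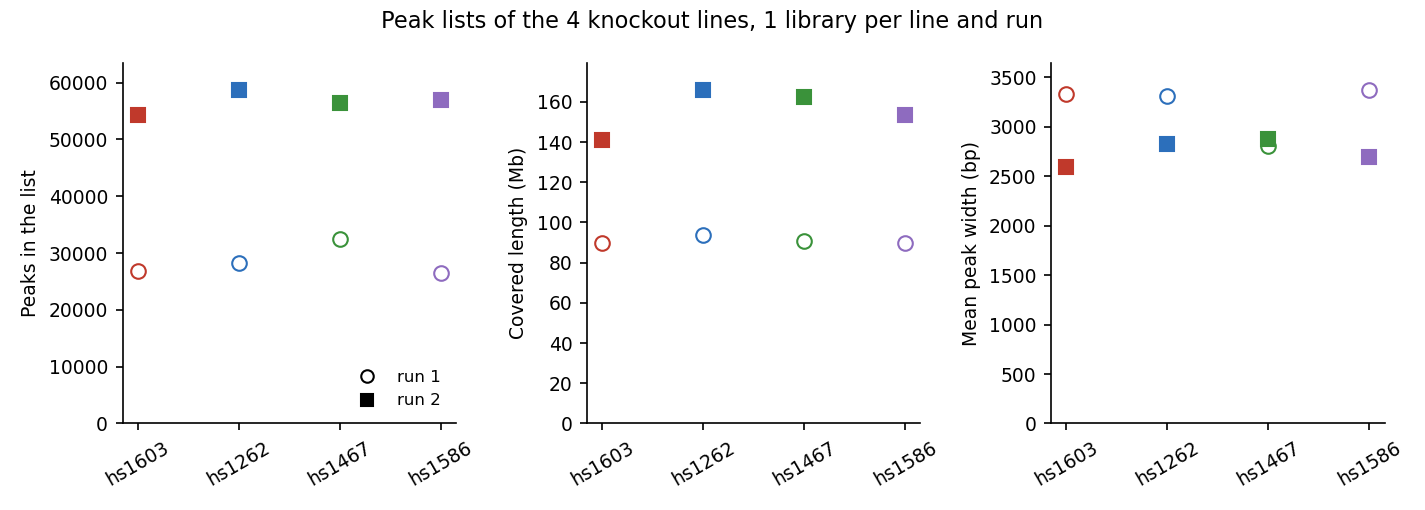
Number of peaks, covered length in Mb and mean peak width in bp for each list, with open circles for run 1 and filled squares for run 2, 1 library per point and no error bars. In run 2 hs1603 has the lowest value of the 4 lines in all 3 panels, and in run 1 it lies within the range of the sisters in all 3.

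The overlap with other lists was compared by pairs. Pairs of an hs1603 and a sister library shared a mean Jaccard index of covered bases of 0.625 in run 1, against 0.643 ± 0.018 for pairs of sisters (SD, 3 pairs). In run 2 the values were 0.728 and 0.745 ± 0.006 (SD, 3 pairs). Single pairs with hs1603 ran from 0.601 to 0.640 in run 1, overlapping the sister pairs at 0.628 to 0.663. In run 2 they ran from 0.721 to 0.733, below the sister pairs at 0.739 to 0.752. In run 1 the pairs of hs1467 had a mean of 0.623, so hs1603 was not the line with the lowest overlap there, and in run 2 it was. The difference of -0.0179 had an exact permutation p of 0.125, adjusted to 0.208.

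Retention, the share of the regions called by the 3 other lines of a run that a library also called, was lowest in hs1603 in both runs. In run 1 hs1603 called 90.1%, against 90.9% in hs1586, 93.1% in hs1262 and 95.4% in hs1467. In run 2 it called 93.5%, against 95.9% in hs1586, 96.0% in hs1467 and 97.3% in hs1262. The difference of -2.98 percentage points had an exact permutation p of 0.125, adjusted to 0.208. On lists of equal length it was -0.937 points (exact permutation p = 0.0625, the smallest possible). Expressed as misses, hs1603 lacked 2015 of 20271 such regions in run 1, or 9.94%, and 2937 of 44927 in run 2, or 6.54%.

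The regions missed by the 2 hs1603 libraries were of different kinds. In run 2 the misses were nearly all weak or short regions, apart from the gap. Of 21980 regions with a mean sister percentile above 60, hs1603 missed 3. First of the 2937 came the gap, at 89.4, followed by a region at 63.9 (chromosome 12, 35277688 to 35281287) and one at 61.8 (chromosome 8, 43126878 to 43131121). The latter 2 were called in hs1603 replicate 1, at 67.0 and 50.6, and were named after their values were seen. By width, the share missed in run 2 was 22.5% for regions under 2 kb, 4.06% from 2 to 4 kb, 0.499% from 4 to 6 kb and 0.0371% from 6 to 10 kb.

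In run 1 hs1603 also missed strong and broad regions. Of 10320 regions with a mean sister percentile above 60, replicate 1 missed 515 (4.99%). The sister libraries of run 1 missed 66 of 10003 in hs1262, 39 of 9584 in hs1467 and 123 of 10152 in hs1586. Above a percentile of 80, hs1603 replicate 1 missed 163 of 5067, against 15, 7 and 27 in the sisters. The share missed was 10.1% for regions of 6 to 10 kb and 15.1% for those of at least 10 kb, where the sister libraries missed 0.488% to 2.08% and 0.730% to 3.37%.

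The strong regions missed in run 1 were called almost everywhere else. The 163 lay on 20 chromosomes and had a median width of 6483 bp. All 163 were called in all 10 libraries of the other runs, and 162 were called in hs1603 replicate 2, the exception being the gap. The strongest, on chromosome 17 from 71193956 to 71204536, had a mean sister percentile of 99.5 in run 1 and stood at 97.1 in hs1603 replicate 2. On chromosome 1 from 152837037 to 152842951, chromosome 11 from 98635554 to 98651875 and chromosome 2 from 152548762 to 152570506 the sister means were 98.6, 98.3 and 97.9. There hs1603 replicate 2 again stood at 97.1, the value of a score at the ceiling and the highest that its list allows. These 4 were named after their values were seen. The gap ranked 19th among the 2015 misses of run 1, so that in run 1 alone its strength did not set it apart.

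**Figure D4:**
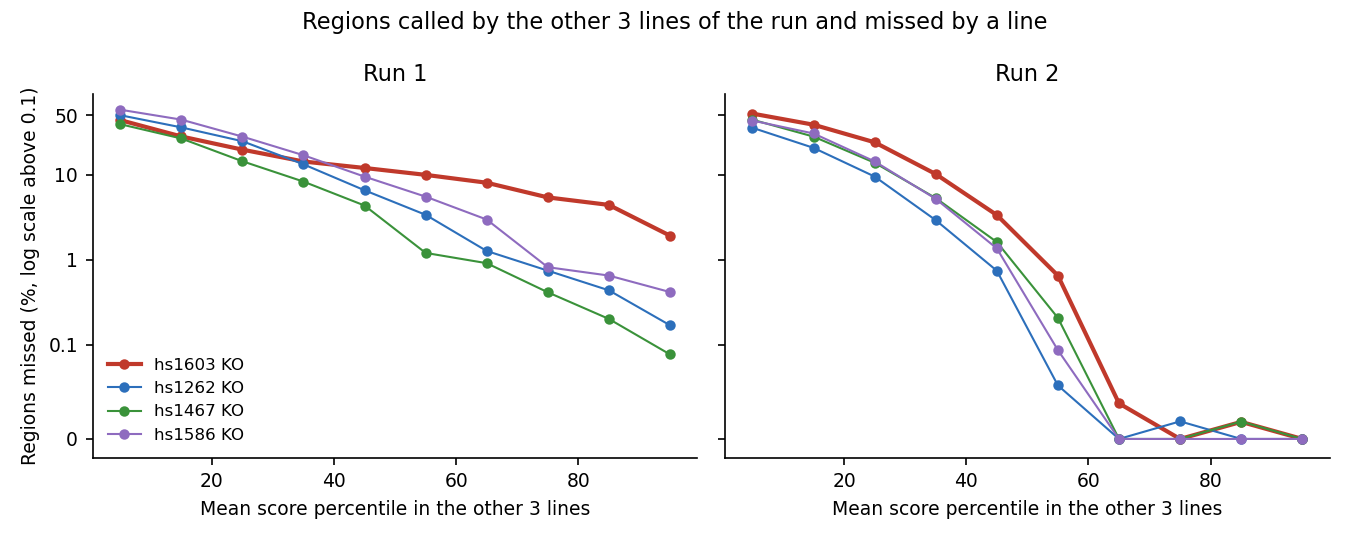
Share of the regions called by the other 3 lines of a run that a line missed, by their mean score percentile in those 3 lines (10 bins, y axis in percent, logarithmic above 0.1), in run 1 and run 2. In run 1 hs1603 (red) misses 4.40% of regions from percentile 80 to 90 and 1.91% above 90, where no sister misses more than 0.648% and 0.415%, and in run 2 it misses 1 region above 80, the gap.

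Few misses recurred. The 42 regions absent from both hs1603 libraries were 2.08% of its misses in run 1 and 1.43% of those in run 2. The corresponding shares for the sister lines were 1.98% and 2.31% in hs1262, 2.82% and 1.42% in hs1467 and 2.02% and 2.04% in hs1586. The hs1603 line thus missed more regions in each run than any sister line, and the shares that recurred lay beside those of the sisters.

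For the 17912 regions called in all 8 libraries, the strength and breadth of the peaks were compared with limma, with the run as a block. No region differed in score rank after Benjamini-Hochberg adjustment, where the smallest adjusted p was 0.807. Without adjustment 739 regions (4.13%) had a p under 0.05, of which 568 (3.17%) ranked lower in hs1603 and 171 (0.955%) ranked higher. In covered length 0 regions passed, with a smallest adjusted p of 0.0657. Without adjustment 668 regions (3.73%) had a p under 0.05, of which 480 (2.68%) were shorter and 188 (1.05%) were longer. The median SE was 0.257 normal scores for the rank and 0.0862 for the log2 covered length.

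The call of 0 in both measures changed when one hs1603 library was left out. Without hs1603 replicate 2, limma called 165 regions in rank, 163 of them lower, and 35 in covered length. Without hs1603 replicate 1 it called 0 in both. These counts describe hs1603 replicate 1, whose strong misses are given above. In rank, 994 shared regions (5.55%) lay more than 1 normal score below the sister mean in replicate 1, and 342 (1.91%) lay more than 1 above. The sister libraries of run 1 had 673 to 853 below, each against the other 3 lines. Of the 994, 262 (26.4%) were at the score ceiling in hs1603 replicate 2, where 7.64% of all shared regions were, and 12 lay more than 1 below in replicate 2 as well.

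The deviations of hs1603 from its sisters in run 1 were at most weakly related to those in run 2. Across the shared regions, which are not independent replicates, the correlation of the run 1 and run 2 deviations was -0.06 in rank and -0.09 in covered length. The sister lines, each against the other 3, gave -0.05, -0.05 and -0.03 in rank for hs1262, hs1467 and hs1586, and -0.01, -0.10 and -0.06 in covered length. Counting regions whose hs1603 libraries lay outside the sister range in both runs, 6.82% were above and 4.18% below in rank, and 3.65% were above and 5.05% below in centred covered length.

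**Figure D5:**
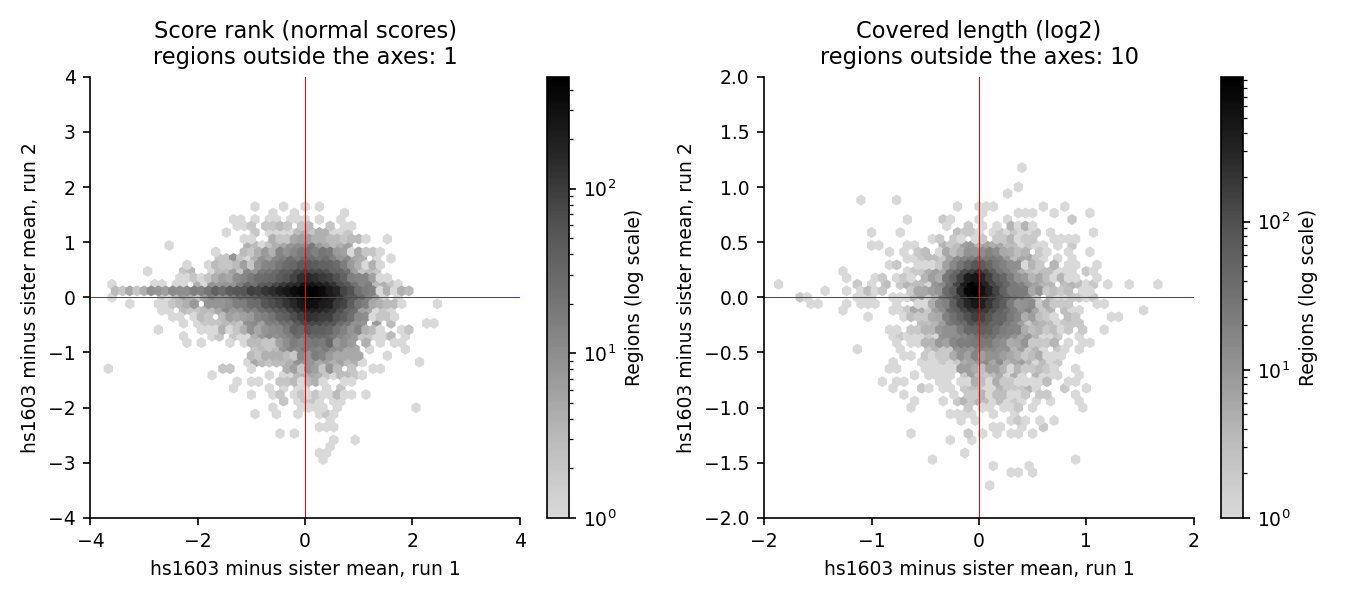
Difference of hs1603 from the mean of the 3 sister libraries in run 1 (x axis) and run 2 (y axis) for the regions called in all 8 libraries, in normal scores of the score rank (left) and log2 covered length (right); the shade counts regions on a log scale, and the number outside the axes is printed above each panel. The clouds do not lie along the diagonal (r of -0.06 and -0.09), and the left panel has a tail of regions that are low in run 1 and near 0 in run 2.

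The regions with the smallest p are given as not passing. The lowest in rank lay on chromosome 18 from 13906615 to 13912721. It stood at a percentile of 17.2 in hs1603 against 65.1, 75.6 and 60.9 in hs1262, hs1467 and hs1586 in run 1, and at 22.2 against 62.0, 61.7 and 51.4 in run 2. The difference was -1.59 normal scores (SE 0.216, limma adjusted p = 0.807). The groups did not overlap, in a region picked for its p. Of all 17912 shared regions, 749 (4.18%) ranked below every sister library in both runs. Covered length was not lower, at 6107 bp in hs1603 against 3651 to 4815 bp in run 1. In run 2 the region was covered over 4610 bp in hs1603, against 3312 to 5861 bp. The 9 libraries of the other runs that called it stood at 27.5 to 70.7. The second lay on chromosome 13 from 108587040 to 108590727, at 22.3 against 54.5 to 65.9 in run 1 and at 16.9 against 52.0 to 64.2 in run 2. Its difference was -1.47 (SE 0.220, limma adjusted p = 0.827), and 4 of 10 other libraries called it. Wild-type replicate 3 stood there at 13.8, hs72 replicate 2 at 12.1, and mm1179 replicates 3 and 4 at 4.83 and 57.4.

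The 2 regions of smallest p that ranked higher in hs1603 were near the middle of its lists. On chromosome 11 from 80630383 to 80632794, hs1603 stood at 43.1 against 18.0 to 36.8 in run 1 and at 45.5 against 22.4 to 28.4 in run 2. The difference was 0.81 normal scores (SE 0.209, limma adjusted p = 0.980). On chromosome 15 from 36840387 to 36844149, hs1603 stood at 51.6 against 16.2 to 37.4 and at 54.2 against 40.7 to 47.9, a difference of 0.74 (SE 0.196, limma adjusted p = 0.980). The first difference was 0.53 without hs1603 replicate 2. In the other runs 3 and 8 of 10 libraries called these regions, at percentiles of at most 34.8 and 24.5.

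In covered length, the region nearest to the threshold was shorter in hs1603. On chromosome 2 from 30978924 to 30983512, hs1603 covered 2311 bp in run 1 against 4089, 3652 and 4565 bp in hs1262, hs1467 and hs1586, and 2316 bp in run 2 against 4476, 4143 and 4423 bp. The hs1603 libraries lay far below the sisters in both runs, with a log2 difference of -0.86 (SE 0.0758, limma adjusted p = 0.0657). On lists of equal length the difference was -0.52 (SE 0.236, limma adjusted p = 0.99985). The same region was covered over 1363 to 3704 bp in the 10 libraries of the other runs. That range includes the hs1603 level, but in lists whose peaks are narrower as a whole. Its percentiles, 56.9 against 45.6 to 50.1 in run 1 and 62.4 in run 2, inside the sister range, were not lower. A region on chromosome 3 from 51989153 to 51992453 had 1921 against 3057 to 3203 bp and 1965 against 3161 to 3301 bp. Its log2 difference was -0.71 (SE 0.0777, limma adjusted p = 0.113). In the libraries of the other runs, with their narrower peaks, it was covered over 0 to 2524 bp, which include the hs1603 level.

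The longer region with the smallest p lay on chromosome 19 from 5015093 to 5019098. There hs1603 covered 4006 bp against 2254, 2318 and 2218 bp in run 1 and 3746 bp against 2421, 2471 and 2256 bp in run 2. The log2 difference was 0.75 (SE 0.0722, limma adjusted p = 0.0657). It was 0.09 without hs1262 replicate 2, 0.16 without hs1603 replicate 1, 0.14 without hs1603 replicate 2 and 0.12 on lists of equal length, settings in which the consensus region ended at a shorter boundary. Peaks of 2 libraries suffice for a region, so the 2 hs1603 libraries can themselves set the length on which they are compared. Without hs1603 replicate 1 the region ended at 5017621, and without replicate 2 at 5017758. A region on chromosome 8 from 97687509 to 97690570 had 3062 against 1973 to 2263 bp and 2947 against 2017 to 2099 bp, a log2 difference of 0.52 (SE 0.0686, limma adjusted p = 0.197). It was 0.20 without hs1603 replicate 1 and 0.02 without replicate 2, where the region ended at 97689822. The added length of this region thus also entered the test through the 2 hs1603 libraries. Without the run as a block, limma's Benjamini-Hochberg adjusted p was 0.0175 for the regions on chromosomes 2 and 19 and 0.0363 for the region on chromosome 3, and these 3 were then the only regions called. With calls at 50% of a region covered, the limma adjusted p was 0.0221, 0.0221 and 0.0344. The chromosome 19 region also passed without hs1467 replicate 1 (limma adjusted p = 0.0387) and the chromosome 3 region with no centring (0.0341). In most other settings the 3 did not pass.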

How the data were processed

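H3K27ac ChIP-seq of pooled forelimbs was analysed from 1 deposited peak list per library. The submitters' processing notes name MACS 1.4.2 and Bowtie 0.12.8, besides cutadapt 1.1, bcl2fastq 2.17 and CASAVA, with the build mm9. The use of the 18 input samples in peak calling is not given in the sources used here. The authors' deposited lists give a position and a score per peak, from 40 upward. Without read counts in the lists, depth is unknown and no counting interval was computed.

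From these, consensus regions over the 8 libraries, calls (overlap of at least 1 bp), score percentiles, covered bases and tiles were computed with Python 3.11.15, numpy 2.4.6, scipy 1.17.1 and pandas 2.3.3. Figures used matplotlib 3.10.9. A region takes the highest percentile of its peaks. limma 3.58.1 in R 4.3.3 was fitted to normal scores of the score rank and to log2 covered bases, each library centred on its median, over regions called in all 8 libraries, with Benjamini-Hochberg adjustment at 0.05. List measures were tested by permuting the hs1603 label within runs. The procedures were tested on simulated data.

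Run and replicate number coincide. Same-numbered libraries deviated together from their line means (r of 0.137 to 0.359 over the 6 pairs of lines), so the run was kept as a block.

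The members and lists were chosen with earlier results of these data known. Named are the gap and its 5 nearest regions on each side, the 5 strongest regions separating hs1603 from the sisters in each direction, the 5 longest lost and gained segments, and, as none passed, the 2 regions of smallest p in each direction of both limma tests. Others are said to be named after their values were seen. The score ceiling, the retention measure and their alternatives were added after seeing the data.

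Alternatives were a minimum score of 100, lists cut to the 26550 highest-scoring peaks, tiles of 1000 bp, autosomes, regions of at least 1 library, calls at 50% of a region covered, uncapped or whole-list scores, no centring, robust empirical Bayes, no block, other windows and each library left out. The annotation at hand was of another build, and regions were therefore not assigned to genes, nor was any sequence read.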

Additional observations from a re-analysis of the deposited data

Results flagged for a closer look

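Over the chromosome 6 gap, mm1179 replicate 2 stood at a score percentile of 79.14, apart from the other 3 mm1179 libraries at 88.8 to 90.2. It still had a peak there, of 3834 bp. A gap of this size to the nearest library arises by chance in about 1 in 20 groups of such size, and its cause was not tested. That rate takes no account of the choice of place and group, which were picked from these data. Wild-type replicate 1 stood lower still, at 72.7, with the other wild-type libraries at 86.4 to 90.9.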

How the results depend on the processing

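Under the alternatives, 160 values were computed. The counts of regions and segments moved by over 1.5 times in 38, and the tested difference in mean width turned in sign in 3. The other 119 kept the sign and side of the threshold of a tested difference, stayed within 1.5 times of a count or, for the share called within 1 Mb of the gap, stayed within the spread of the 2 runs. That share had no test, and its difference of -5.19 points turned in sign to 1.92 on lists of equal length and 0.439 without hs1603 replicate 2. Equal lists also gave -3.74 Mb, -0.937 points of retention, -141.0 bp of mean width and, by construction, 0 peaks of difference. The cause was not tested, except that fewer libraries to match can only add regions and tiles, and that a region of at least 2 libraries cannot be called by 1 remaining hs1603 library alone. The gap on chromosome 6 was among the lost segments in every setting. With a minimum score of 100, 11 regions were missing in hs1603 and 8 were called in it alone, with 211 lost and 129 gained segments. On lists of equal length these counts were 21, 21, 249 and 171, and 1 region differed in covered length. Tiles of 1000 bp gave 212 lost and 162 gained segments, and regions of at least 1 library gave 21 called in hs1603 alone. In covered length, limma called 3 regions when 50% of a region had to be covered and 1 with no centring. With no replicate block it called 3 in covered length and 0 in rank. The other comparisons without the pairing of runs gave -10.7 Mb (exact permutation p = 0.5), -2610 peaks (exact permutation p = 0.571) and a retention difference of -2.98 points (exact permutation p = 0.214), and the smallest p over the 28 arrangements is 0.0357. With 1 library left out, missing regions numbered 46 to 1940, highest without hs1603 replicate 2, and were 176 without hs1603 replicate 1. Regions in hs1603 alone numbered 0 to 88, with 0 without either hs1603 library. Lost segments numbered 456 to 2770 and gained segments 339 to 4304, both highest without hs1603 replicate 1, and were 2345 and 3266 without replicate 2. Regions differing in covered length numbered 0 to 35 and in rank 0 to 165, both highest without hs1603 replicate 2, where the single hs1603 library left is assumed to vary like the others. The difference in covered length ranged from -19.7 to -1.75 Mb, that in peaks from -3248 to -1768, that in Jaccard index from -0.0220 to -0.0125, that in retention from -4.31 to -2.47 points and that in mean width from -206.1 to 167.9 bp. No p of these was under 0.05, and with only 12 or 4 arrangements none could be. The mean width difference was 18.0 bp without hs1262 replicate 1 and 34.0 bp without hs1586 replicate 1.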
